A study of Mus musculus with 20 samples.

Results

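The mitochondrial respiratory chain was examined in 20 RNA libraries of whole mouse adrenal glands, across 105 genes of the 47729 in the table. The genes were chosen by name alone: Ndufa, Ndufb, Ndufc, Ndufs and Ndufv genes, Sdha to Sdhd, Uqcr genes, Cox4 to Cox8 genes, Atp5 genes, and the mt-Nd, mt-Co, mt-Cytb and mt-Atp genes. Names with a pseudogene ending were left out, which removed 4 rows (Atp5l-ps1, Atp5l-ps2, Atp5k-ps2 and Atp5l2-ps). Of the 105 genes, 92 are nuclear and 13 lie on the mitochondrial genome. The nuclear genes comprise 75 subunits (36 of complex I, 4 of complex II, 8 of complex III, 12 of complex IV and 15 of complex V), 7 complex I assembly factors (Ndufaf1 to Ndufaf7), 8 tissue-restricted isoforms, and 2 genes related to ATP synthase by name, Atp5s and Atp5sl. The rule uses names and no measured value, but it was set with earlier results of these data known. All 4 groups carried the Cre driver SCC::Cre, controls included. The side-chain cleavage enzyme after which the driver is named is made in the steroid-producing cells of the adrenal cortex, so the other cells of a whole gland are not its target. There were 5 control females (labelled 3.4, 2.7, 2.7, 1.5 and 1.5 months old), 5 Bmal1 knockout females (3.4, 2.7, 2.6, 2.4 and 2.4 months), 6 control males (4.7, 4.6, 3.7, 3.1, 2.9 and 2.9 months) and 4 Bmal1 knockout males (3.7, 3.3, 2.9 and 2.9 months). Libraries are called below by group and number in that order of age. The sources used here give no strain, floxed alleles, deleted exons or time of day of collection.

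The respiratory chain sits in the inner mitochondrial membrane. Complexes I and II pass electrons from NADH and succinate to ubiquinone, complex III passes them on to cytochrome c, complex IV hands them to oxygen, and ATP synthase, or complex V, uses the proton gradient that results. All complexes except complex II combine nuclear-encoded subunits with subunits made inside the mitochondrion from its own genome. In the adrenal cortex the mitochondria also hold the first and last enzymes of steroid synthesis, which draw electrons through a chain of their own. Bmal1, or Arntl, is a transcription factor of the circadian clock.

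Values are normalised read counts, that is reads per gene divided by a scaling factor for the library. Library depth ran from 13421985 to 26742820 reads. Cortex and medulla markers were present in every library: summed over 11 steroidogenic genes the level was 780530 to 1582298, and over 15 chromaffin-cell genes 122568 to 283831. The level of Arntl was not reduced in libraries labelled knockout, at 618 ± 147 in control and 905 ± 71.8 in knockout females and 663 ± 238 and 923 ± 69.8 in males, and a count over the whole gene does not check the loss of some exons. Its targets Nr1d1 and Dbp were lower, with log2 differences of -3.40 and -2.69 in females and -2.59 and -2.32 in males (adjusted p at most 8.4e-06, limma). In a list of 6 clock genes, 3 were called higher and 2 lower in each sex. Control male 6 stood apart: its summed levels were 304312 for the nuclear genes and 2727510 for the mitochondrial genes, above all other control males (at most 260330 and 2057643). Bmal1 knockout female 4 (326999) and Bmal1 knockout male 1 (280395) also exceeded their groups in the nuclear sum. The labels do not say that the libraries came from separate animals, so p-values measure only the spread between these libraries, which may in part be technical.

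Measured per kilobase of transcript, the mitochondrial genes lay far above the nuclear ones. In complex I the level per kilobase ran from 20726 (mt-Nd3) to 169185 (mt-Nd1) for the 7 mitochondrial subunits and from 449.7 (Ndufb4) to 6542 (Ndufa7) for the 36 nuclear ones, as the mean of the 4 group means. In complex II, which is wholly nuclear, the iron-sulphur subunit Sdhb was highest at 4849 and the membrane anchor Sdhc lowest at 823. In complex III, cytochrome b (mt-Cytb) reached 195351 and the nuclear subunits ran from 2288 (Uqcrc1) to 7295 (Uqcrq). In complex IV, the catalytic subunit mt-Co1 reached 303975, and the nuclear subunits ran from 1492 (Cox7c) to 9321 (Cox4i1, the regulatory subunit of most tissues). In complex V, mt-Atp6, a part of the proton channel, reached 397671, the highest of all 105 genes per kilobase, and the catalytic beta subunit Atp5b was the highest nuclear gene of any complex at 13007. The lowest nuclear subunits of complexes I, IV and V, Ndufb4, Cox7c and Atp5g2, each have a near-identical copy in the table that took most of the reads, as described below. The same holds for mt-Nd3, the lowest mitochondrial gene. The subunits of a complex are present in fixed numbers per complex, but their RNA levels spanned more than an order of magnitude within complex I.

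**Figure D1:**
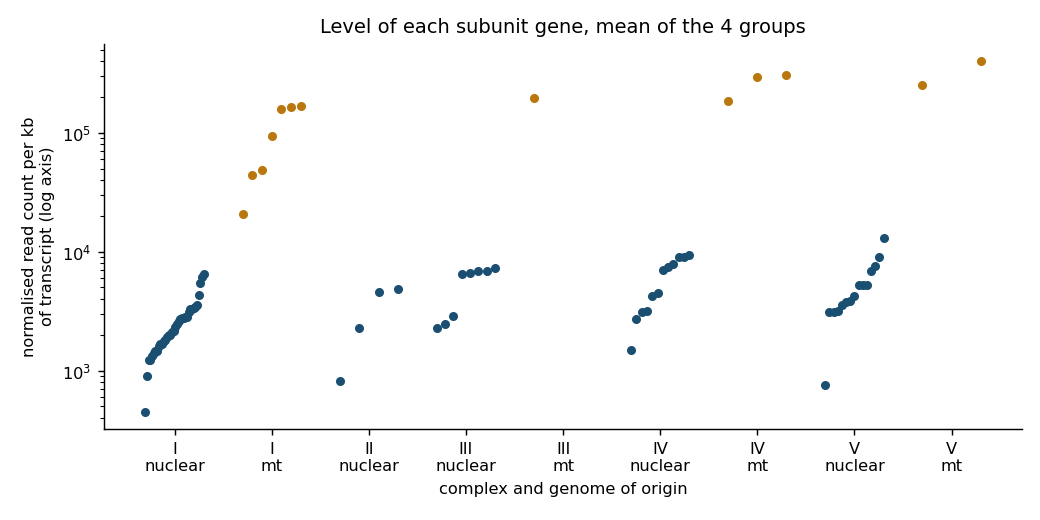
Level of each gene per kilobase of transcript (mean of the 4 group means, log axis) by complex, with mitochondrial and nuclear genes apart. The 13 mitochondrial genes lie between 20726 and 397671, above every nuclear gene, of which the highest is Atp5b at 13007. Reads of mt-Nd3, the lowest mitochondrial gene, are shared with a near-identical copy.

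Together the 13 mitochondrial genes took 9.64% ± 1.40 of all reads in control females (SD, n = 5), 9.42% ± 1.09 in knockout females (n = 5), 9.87% ± 1.18 in control males (n = 6) and 9.60% ± 1.45 in knockout males (n = 4). These shares overlapped between all 4 groups. The 92 nuclear genes together took 1.40% ± 0.110, 1.35% ± 0.0272, 1.26% ± 0.0573 and 1.19% ± 0.0878 of reads in the same order. In normalised counts the nuclear sum was 268770 to 347676 in control females, 287389 to 326999 in knockout females, 241561 to 304312 in control males and 226064 to 280395 in knockout males. In the controls the female and male ranges overlapped. In the knockouts the lowest female library lay above the highest male library. In RNA from whole glands, fewer cells of a type and less RNA per cell cannot be told apart.

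**Figure D2:**
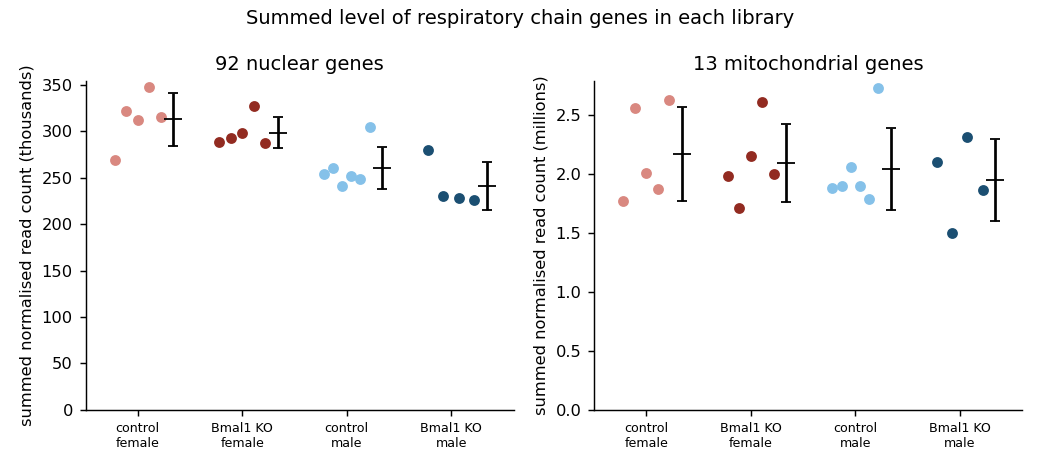
Summed normalised read count of the 92 nuclear and the 13 mitochondrial genes in each library (points), with the mean and SD of each group in black. The nuclear sum averages 313169 in control females and 260240 in control males, while the mitochondrial sums overlap between all groups; control male 6 is the highest male in both panels.

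Most differences in the respiratory chain lay between females and males, and in the nuclear genes. The test throughout is limma on log2(value + 1), over all 26612 genes that reached a value of 1 in 4 or more libraries. A call means an adjusted p (Benjamini-Hochberg, all genes) under 0.05, and differences are female minus male or knockout minus control on that log2 scale, ± SE. Of the 105 genes 103 passed the filter on low values, all but Cox7b2 and Cox8c. In controls, 43 of the 103 were called higher in females (13.5% of all genes tested were) and 3 lower (12.9% of all genes were). In the knockouts, 52 were called higher in females (12.1% of all genes) and 1 lower (10.6% of all genes). These were 41.7% and 50.5% of the 103 for the genes higher in controls and knockouts. Genes that are also short and abundant were called more often than all genes. Of 1105 others of at most 1500 bases and a level of at least 500, 403 were higher and 108 lower in control females. In knockout females 466 were higher and 57 lower, and the medians were 0.15 and 0.21. A call in 1 genotype and not in the other is no difference between them: the interaction described below called none of the genes. Without overlap between the groups, 10 genes were higher in control females (7.32% of all genes) and 2 lower (6.61%), and 35 were higher in knockout females (11.0%) and none lower (9.79%). The calls shared by both genotypes numbered 37 of the 58 that were called higher in either. The median difference of the 75 nuclear subunits was 0.24 in controls and 0.34 in knockouts, against -0.05 and -0.07 over all genes tested, and 74 of the 75 were above 0 in each genotype. None of the 13 mitochondrial genes was called in either genotype, their median differences were 0.09 and 0.14, and 1 had an unadjusted p under 0.05 in each. Over all 26612 genes tested, 9717 and 9144 had such a p in controls and knockouts. Without control male 6, 57 genes were called higher in control females (13.8% of all genes), and without control female 1 also 57 (13.4%). Where libraries were scaled to all their reads instead, the median of all genes shifted by -0.10 in controls and -0.11 in knockouts. The numbers called higher then fell to 28 and 33 (8.56% and 7.73% of all genes). Of the nuclear subunits 62 and 68 were above 0, and the mitochondrial median in controls changed sign to -0.03. Relative to all genes, the nuclear-subunit median was 0.28 and 0.38 under that scaling and 0.29 and 0.40 as deposited.

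**Figure D3:**
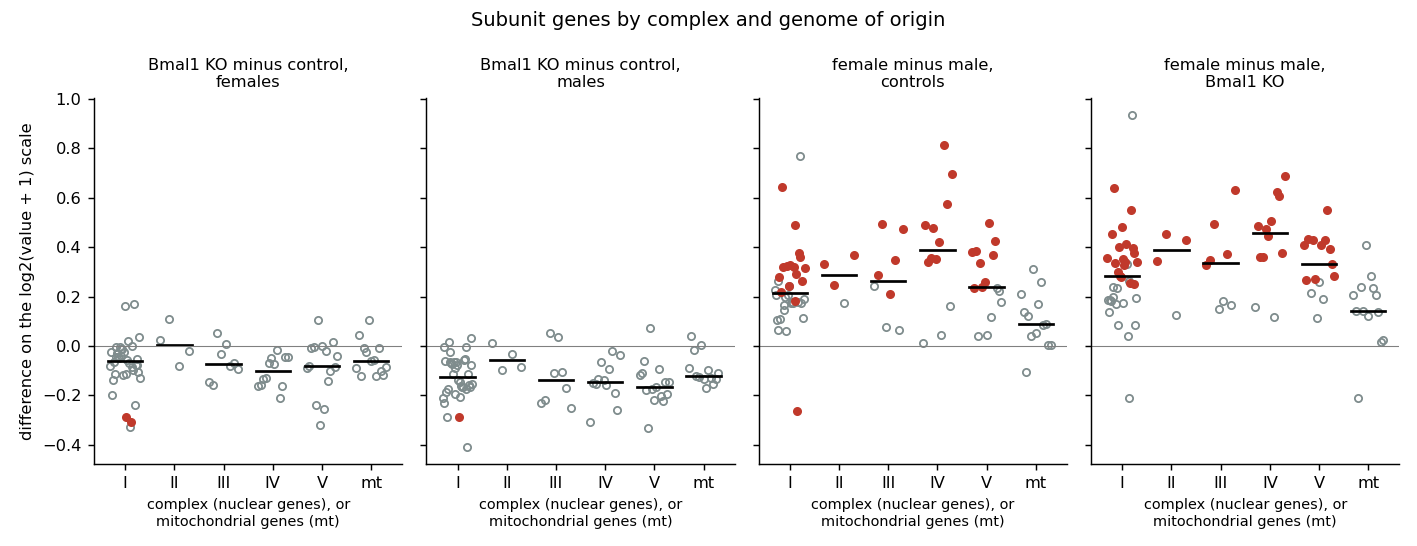
Log2 difference of each of the 75 nuclear subunits by complex and of the 13 mitochondrial genes, for knockout minus control in each sex and for females minus males in controls and knockouts; filled red points passed adjusted p under 0.05, open points did not, and black lines are medians. Of the nuclear subunits 41 are filled above 0 and 1 below in controls and 48 above 0 in knockouts, while the knockout panels hold 2 filled points in females and 1 in males.

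Age differs between the groups, since the control females include 2 libraries of 1.5 months and the control males 2 of over 4 months. With age as a linear term, 15 genes were called higher in control females (14.6% of the 103, against 7.69% of all genes), and without the 1.5-month libraries 20 were (19.4% against 9.93%). Among libraries of 2.4 to 3.7 months only, an alternative chosen after seeing the data, 11 were (10.7% against 7.45%). Counted over all 35 alternative settings, 11 genes were called higher in females in both genotypes in each one: Ndufa4, Ndufa6, Ndufs4, Ndufaf4, Sdhd, Cox6a2, Cox7b, Cox7c, Atp5c1, Atp5g3 and Atp5j2. Of all genes tested, 4.3% were (10.7% of the 103). In the knockouts, where the ages of females and males lie closer together, 31 genes (30.1%) were called higher in every alternative, as were 6.73% of all genes.

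Complex I has a core that binds flavin and iron-sulphur clusters, and many accessory subunits around it. Of its 36 nuclear subunits, 15 were called higher in control females and 19 in knockout females, with medians of 0.21 and 0.28. Here and for the complexes below, the shares of all genes called higher were 13.5% and 12.1%. The accessory subunit Ndufa6 stood at 3446, 4313, 4479.7, 5166 and 4754 in the control females and at from 2454 to 3426, with a median of 2775, in the control males. Every control female exceeded every control male, with the lowest female and the highest male close to each other, and the difference was 0.64 ± 0.09 (adjusted p = 1.1e-05). In the knockouts the values were 4404, 4258, 4417, 4363 and 4080.2 in females and 2959, 2775, 2569 and 2753 in males, again without overlap (0.64 ± 0.10, adjusted p = 5.2e-05). Ndufs4, an accessory subunit needed for assembly of the NADH-oxidising arm, was higher in females by 0.38 ± 0.07 in controls and 0.55 ± 0.08 in knockouts (adjusted p = 0.00047 and 3.1e-05). Fewer of the catalytic core subunits passed the test. Ndufs8 was called higher in females in both genotypes (0.26 and 0.38). The iron-sulphur subunit Ndufs1 was called in controls (0.29, adjusted p = 0.019; 0.26 and 0.061 in knockouts), and Ndufs3 and Ndufs7 in knockouts (both 0.25) and not in controls (0.18 and 0.17). The flavin subunit Ndufv1 and its partner Ndufv2 were not called, with differences of 0.11 and 0.19 in controls. Ndufa2, an accessory subunit, was called higher in females in both genotypes (0.28 and 0.45). None of the 7 mitochondrial subunits was called: mt-Nd4 differed by 0.08 and 0.20, mt-Nd4l, which shares bases with it, by 0.09 and 0.14, and mt-Nd5 by 0.00 and 0.02.

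Complex II oxidises succinate and is shared with the citric acid cycle. The flavin subunit Sdha, the iron-sulphur subunit Sdhb and the anchor Sdhd were called higher in females in both genotypes, and the anchor Sdhc in neither (0.17 and 0.13). Sdha differed by 0.33 and 0.35 and Sdhb by 0.25 and 0.45 in controls and knockouts. Sdhd stood at 2886, 3161, 3179.7, 3502 and 3215 in control females and from 2359 to 2680.5, with a median of 2441, in control males. It was at 3003, 3071, 3277, 3467 and 2901 in knockout females and 2576, 2442, 2158 and 2168 in knockout males. Neither pair of groups overlapped (0.37 ± 0.06 and 0.43 ± 0.07, adjusted p = 0.0002 and 0.00014).

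In complex III, 5 of 8 nuclear subunits were called higher in females in each genotype, with medians of 0.26 and 0.34. The Rieske iron-sulphur protein Uqcrfs1, the only nuclear catalytic subunit among them, differed by 0.35 ± 0.09 and 0.37 ± 0.10 (adjusted p = 0.006 and 0.0093). The small subunits Uqcrb and Uqcrq differed by 0.49 and 0.48 in controls and 0.49 and 0.63 in knockouts. The core protein Uqcrc2 was called in controls (0.21) and not in knockouts (0.18), and Uqcrc1 in neither (0.08 and 0.15). The mitochondrial partner mt-Cytb was the 1 mitochondrial gene with an unadjusted p under 0.05. It stood at 174097, 283017, 233999, 222352 and 306225 in control females and from 167724 to 259071, with a median of 187081, in control males, and these groups overlapped (0.31 ± 0.15, adjusted p = 0.13). In the knockouts it differed by 0.41 ± 0.16 (adjusted p = 0.077).

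Complex IV showed the highest medians, at 0.39 in controls and 0.46 in knockouts, with 9 and 10 of its 12 nuclear subunits called higher in females. A difference between complexes was not tested. Ndufa4, once counted with complex I and now assigned to complex IV, had the smallest adjusted p of the 103 genes in both genotypes. It stood at 5423, 6149, 6043, 6525 and 5979.7 in control females and from 3407 to 4713, with a median of 3579, in control males, where the highest value is control male 6. In the knockouts it was at 5789, 6342, 5628, 5953 and 5465 in females and 3919, 3481, 3377 and 3725 in males. The groups did not overlap in either genotype (0.70 ± 0.08 and 0.69 ± 0.08, adjusted p = 8.3e-07 and 4.3e-06). Cox7b, a small X-linked subunit needed for assembly, stood at 2896, 4302, 4209.6, 5163 and 4491 in control females and from 2161 to 3161, with a median of 2213, in control males. Control female 1 lay below control male 6, so the control groups overlapped, and the difference was 0.81 ± 0.12 (adjusted p = 3.4e-05). The knockout groups did not overlap, at 3413, 3453, 3722, 3696 and 3594 against 2692, 2367, 2378 and 1913 (0.62 ± 0.13, adjusted p = 0.0018). Cox5a, which binds next to the catalytic core, differed by 0.49 and 0.49, Cox6b1 by 0.48 and 0.47, and Cox7a2 by 0.42 and 0.50. Cox4i1 did not pass the test (0.01 ± 0.08 in controls, 0.16 ± 0.09 in knockouts), nor did Cox7a2l, a factor for the pairing of complexes III and IV (0.04 and 0.12). The catalytic mitochondrial subunit mt-Co1 was the 1 mitochondrial gene with a difference below 0, at -0.11 ± 0.13 and -0.21 ± 0.15 (adjusted p = 0.61 and 0.33).

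In ATP synthase, 9 of 15 nuclear subunits were called higher in control females and 11 in knockout females, with medians of 0.24 and 0.33. The catalytic head subunits were among them in both genotypes: Atp5a1 (alpha) differed by 0.38 and 0.41, Atp5b (beta) by 0.24 and 0.27, and the rotating shaft subunit Atp5c1 (gamma) by 0.38 and 0.43. Atp5d (delta) was not called in either (0.04 and 0.21). The ring subunit c is encoded by 3 genes. Atp5g3 stood at 5353, 6186, 6646, 6904 and 6047 in control females and from 4119.5 to 5179, with a median of 4294, in control males, without overlap (0.50 ± 0.08, adjusted p = 0.00011). It differed by 0.41 ± 0.09 in the knockouts. Atp5g1 was called in controls (0.26) and not in knockouts (0.11), and Atp5g2 in neither (0.04 and 0.26). Atp5s and Atp5sl were lower in control females than in control males (-0.21 and -0.61, adjusted p = 0.038 and 0.001). Atp5sl stood at 328, 204, 288, 313 and 292 in control females and from 364 to 488, with a median of 436, in control males. The knockout sexes overlapped (-0.12 ± 0.14, adjusted p = 0.58).

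Of the 7 complex I assembly factors, Ndufaf4 was called higher in females in both genotypes (0.38 and 0.51) and Ndufaf3 in knockouts (0.25) and not in controls (0.04). The remaining 5 lay between -0.04 and 0.25 in controls.

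Several of the isoforms known from striated muscle, lung, brown fat or testis were scarce. Cox8b and Ndufa4l2 were not, at 559.7 and 663 in control female 4. Cox7b2 and Cox8c were at 0 in nearly all libraries and did not pass the filter. Cox6a2, the heart and muscle form of subunit VIa, stood at 3.12, 12.4, 35.1, 23.5 and 82.3 in control females and 23.4, 37.5, 56.7, 11.2 and 23.0 in knockout females. In control males it ran from 0 to 3.08, with a median of 1.03, and in knockout males it was at 3.99, 7.42, 0 and 0. All but control female 1 exceeded the males of both genotypes (3.46 ± 0.69 and 3.44 ± 0.76, adjusted p = 0.00072 and 0.0022). The summed level of 10 striated muscle markers was 43.2 to 99.8 over all 20 libraries, with myoglobin (Mb) at 0 in all females, and none of the 8 tested was called higher in females. An exon of Cox6a2 (chr7:128205435-128206387, GRCm38) overlaps Itgad on the opposite strand. No strand setting is given, so the strand of these reads is unknown. Itgad was at 0 to 4.12 in control females and 0.90 to 24.3 in knockout females. In control males Itgad ran from 0 to 30.2, with a median of 21.7, and in knockout males from 2.39 to 6.52. The part of Itgad in the Cox6a2 reads was not tested. Cox8b, the form of muscle and brown fat, was at 167, 138, 165, 559.7 and 233 in control females and at 157, 126, 126, 156 and 92.0 in knockout females. It ran from 180.1 to 396, with a median of 283, in control males, and was at 143, 249, 297 and 355 in knockout males. Control female 4, with the highest Cox8b, was also the library with the highest summed brown-fat markers (1181, with Ucp1 at 609.5, against a median of 224 in its group). Other libraries did not follow this pairing. Knockout female 4 had the next highest sum (635, with Ucp1 at 383) and Cox8b at 156. Control males had sums of 59.0 to 108 and Cox8b at 180.1 to 396. The part of fat tissue in the Cox8b levels was not tested. The sex difference of Cox8b was -0.33 ± 0.30 in controls and -0.93 ± 0.34 in knockouts (adjusted p = 0.48 and 0.05). Cox7a1, the heart and muscle form of subunit VIIa, was called higher in knockout females (0.76 ± 0.21, adjusted p = 0.011; 0.38 ± 0.19 and 0.15 in controls). Ndufa4l2, a hypoxia-responsive relative of Ndufa4, was the 1 gene lower in knockout females than in knockout males (-0.49 ± 0.17, adjusted p = 0.049). That call held in 16 of 35 alternatives. It was lost with TMM scaling, a pseudocount of 0.1, no filter on low values, age as a term or only the groups compared. Cox4i2, the lung form, was at 27.9 to 57.7 in all 20 libraries and Cox6b2, the testis form, at 28.8 to 72.3, and neither was called in any comparison.

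Few respiratory chain genes differed between the libraries labelled knockout and control. In females 2 of 103 were called lower in the knockouts (0.635% of all genes tested were) and none higher (1.12% of all genes). In males 1 was called lower (0.567% of all genes) and none higher (0.763%). With an unadjusted p under 0.05 there were 10 in females and 16 in males, against 3110 and 2899 of the 26612 genes tested. With edgeR on recovered reads the same counts of 2 and 1 were lower, against 210 and 164 of all 18387 genes tested. With DESeq2 3 and 3 were lower, against 377 of 18669 and 346 of 17370. Most differences lay below 0: 83 of 103 in females and 91 of 103 in males, with nuclear-subunit medians of -0.07 and -0.14 and mitochondrial medians of -0.06 and -0.12, against a median of 0.00 over all genes. All 12 nuclear subunits of complex IV were below 0 in both sexes. In females this depended on the control females of 1.5 months: without them the nuclear-subunit median was 0.01 relative to all genes, with 38 of 75 subunits above 0, where it had been -0.07 with 10 above 0. In males it was -0.14 both with all libraries and at 2.4 to 3.7 months. The mitochondrial medians changed sign when single libraries were left out (0.01 without control female 2 in females, 0.02 without Bmal1 knockout male 2 in males), and without control male 6 the male medians were -0.09 and -0.03. Cytosolic ribosomal protein genes had medians of -0.11 and -0.19, and 4 of 81 were called lower in males. The 1105 other genes of at most 1500 bases and a level of at least 500 had medians of 0.01 and -0.07. Of these, 24 were called higher and 6 lower in females, and 13 higher and 18 lower in males. Of the 11 steroidogenic genes none was called in females and Star and Cyp11a1 were called lower in males (-0.69 and -0.71, adjusted p = 0.024 and 0.032). Of the 15 chromaffin-cell markers none was called in either sex. The part of these cells in the differences was not tested.

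Both genes called in females are accessory subunits of the membrane arm of complex I. Ndufb6 (chr4:40270591-40279421, GRCm38) stood at 1300.2, 1423, 1349, 1475 and 1311 in control females and 1067, 1237, 1096, 1171 and 1049.7 in knockout females. Every knockout female lay below every control female (-0.29 ± 0.07, adjusted p = 0.024). It ran from 1147 to 1282, with a median of 1215, in control males, and was at 1125, 1005, 907 and 957 in knockout males, all below the controls (-0.29 ± 0.07, adjusted p = 0.034). Knockouts lay below controls without overlap in 3 of the genes in females (1.44% of all genes tested) and 2 in males (1.49%), and above them in none (1.81% and 1.58%). Ndufc2 (chr7:97400003-97407802) stood at 1950.3, 2238, 2232, 2387 and 2019 in control females and 1744, 1839, 1766, 1792 and 1593 in knockout females, again without overlap (-0.31 ± 0.06, adjusted p = 0.011). In males it ran from 1769.6 to 2000.2, with a median of 1927, in controls and was at 1643, 1831, 1590.1 and 1726 in knockouts, with overlap (-0.17 ± 0.07, adjusted p = 0.32). The other gene without overlap in females, Cox4i2, did not pass the test (-0.53 ± 0.17, adjusted p = 0.13). Cox4i1 in males (-0.31 ± 0.08, adjusted p = 0.087) and Atp5e, the epsilon subunit (-0.33 ± 0.09, adjusted p = 0.077), lay just above the threshold and were both called by DESeq2.

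The call on Ndufb6 held in 25 of 35 alternatives in females and 24 of 35 in males. These counts include runs that left out a library of the other sex, where the log2 difference itself cannot change. With 1 library of the sex compared left out, the female call held only without control female 1 or 5 or knockout female 2 or 4. The male call held only without control male 1 or 6 or knockout male 1. Among others, in females it was lost without any one of control females 2, 3 and 4 and knockout females 1, 3 and 5, without the 1.5-month controls, among libraries of 2.4 to 3.7 months, and when only the groups compared entered the fit. No gene was called in females under these last 3. In males the losing settings included leaving out any one of control males 2 to 5 and knockout males 2 to 4, scaling to all reads, libraries of 2.4 to 3.7 months and only the groups compared. The log2 difference stayed between -0.32 and -0.26 in females and between -0.35 and -0.24 in males. Ndufc2 in females was called without each single library in turn. Ndufb6 shares exon sequence with Smim27 on the opposite strand.

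**Figure D4:**
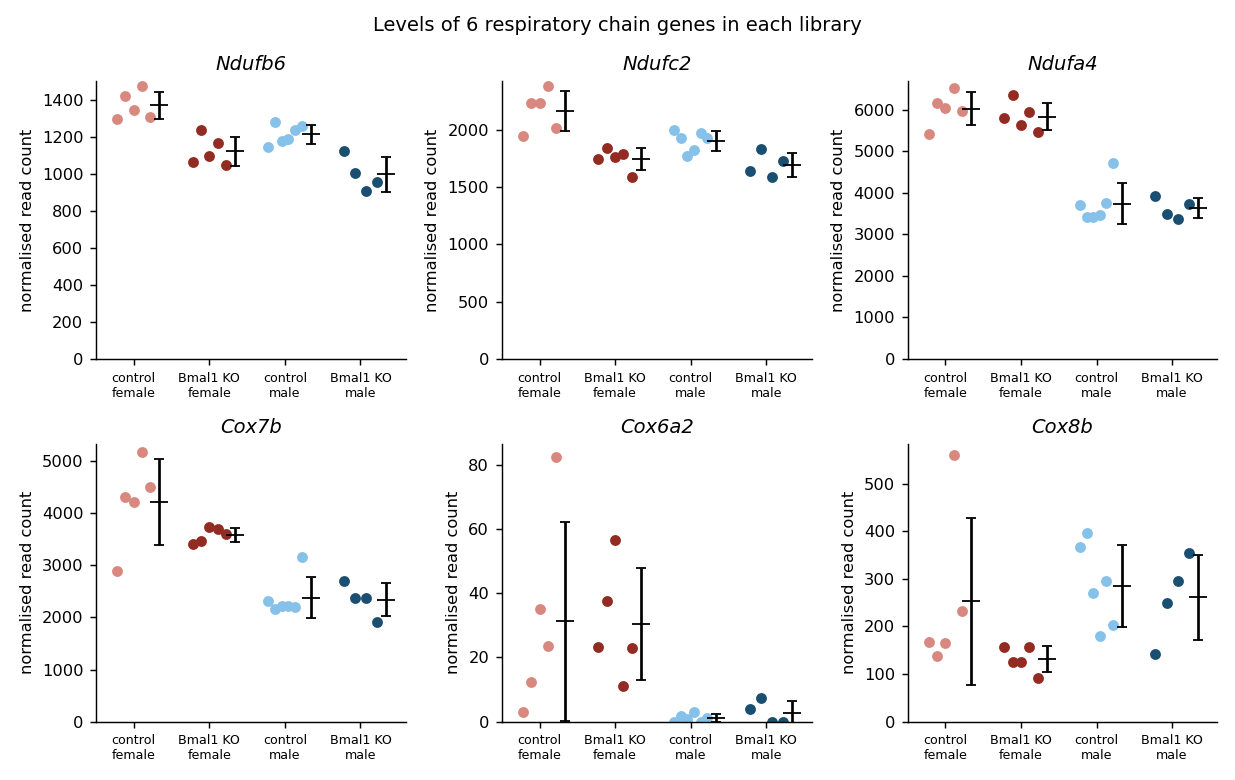
Normalised read count of 6 genes in each library (points) with the mean and SD of each group in black. Ndufb6 and Ndufc2 are lower in knockout females than in control females without overlap, Ndufa4 and Cox7b are higher in females, Cox6a2 is near 0 in males, and Cox8b has 1 high control female at 559.7.

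The effect of the knockout was not called as different between the sexes for any of the 103 genes, while 0.0301% of all genes tested were (8 genes, all higher). With an unadjusted p under 0.05 there was 1, Atp5sl, against 1715 of the 26612 genes tested. Atp5sl differed between knockout and control by 0.12 ± 0.13 in females and -0.37 ± 0.13 in males. The interaction was 0.49 ± 0.19 (adjusted p = 0.67). The call was absent in all 34 alternatives, edgeR and DESeq2 included. For Ndufb6 the interaction was -0.00 ± 0.09, and for Ndufc2 -0.14 ± 0.09.

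Other mitochondrial genes were examined as lists. For comparison, over all genes tested the shares called higher and lower were 13.5% and 12.9% in control females, and 12.1% and 10.6% in knockout females. Of 41 assembly factors that the naming rule does not cover, 17 were called higher and 2 lower in control females, and 12 and none in knockout females. They include Ttc19 of complex III (0.46 and 0.62) and the complex IV factors Cox18 (0.66 and 0.69) and Cox20 (0.37 and 0.35). Uqcc2, an assembly factor of complex III, was lower in control females than in control males (-0.39, adjusted p = 0.00026). It was the 1 gene of this list lower in knockout than in control males (-0.31 ± 0.07, adjusted p = 0.041). Of 15 genes for cytochrome c and ubiquinone, 4 were higher and 3 lower in control females and 4 and 2 in knockout females. Cytochrome c (Cycs) was higher in controls (0.37), and Coq10a was lower in both genotypes (-0.46 and -0.36). Of 17 genes of the citric acid cycle and pyruvate dehydrogenase, 9 were higher in control and 4 in knockout females and none lower, with Fh1 at 0.45 and 0.45. Of 76 mitochondrial ribosomal protein genes, 29 were higher and 2 lower in control females and 33 and none in knockout females. Of 81 cytosolic ribosomal protein genes, 13 and 4, and 23 and none were. Of 1105 other genes with transcripts of at most 1500 bases and a level of at least 500, 403 were higher and 108 lower in control females, with a median of 0.15, and 466 and 57 in knockout females, with a median of 0.21. The X-zone, an inner cortical layer of the female mouse gland, differed greatly: its 4 markers summed to 32182 to 137555 in females and 503 to 1247 in males. Of 11 steroidogenic genes, 6 were higher and 1 (Cyp11a1) lower in control females. Of 8 macrophage markers 2 were higher in control females, where their sum ran from 8833 to 33181 against 7674 to 9907 in control males, and 2 of 8 endothelial markers were lower. None of 15 chromaffin-cell markers was called in controls. In the knockouts Lyz2 was higher and Mrc1 lower in females among the macrophage markers, 3 of 8 endothelial markers (Kdr, Tie1 and Tek) were lower, 2 of 7 lymphocyte markers (Cd79a and Ms4a1) higher, and 1 chromaffin-cell marker (Pnmt) higher. Of the steroidogenic genes 5 were higher and 1 (Fdxr) lower there. Of 6 Schwann and sustentacular cell markers, 1 was lower in control females and 2 in knockout females. Of 10 adipocyte markers, 1 was higher in females in each genotype. The part of these cells in the sex difference of respiratory chain genes was not tested.

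Of 19 genes that copy and transcribe the mitochondrial genome, 9 were higher and 1 lower in control females, and 6 and 1 in knockout females. Tfam, which packages mitochondrial DNA, differed by 0.29 ± 0.06 and 0.32 ± 0.07 (adjusted p = 0.0015 and 0.002), and the elongation factor Tefm by 0.54 and 0.63. The transcription regulator Mterf2 was the 1 gene of the list lower in knockouts, at 291 ± 39.6 in control and 171 ± 20.8 in knockout females and 376 ± 38.7 and 255 ± 39.5 in males. The difference was -0.77 ± 0.12 in females and -0.57 ± 0.12 in males (adjusted p = 0.00072 and 0.018). It was also lower in females than in males (-0.37 in controls and -0.57 in knockouts). Of 12 regulators of mitochondrial gene expression in the nucleus, Gabpa was higher in knockout than in control females (0.39 ± 0.10, adjusted p = 0.043). Nfe2l2 was higher in females than in males in both genotypes (0.25 and 0.23). Nrf1 and Ppargc1a were not called in any comparison.

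Near-identical copies of the respiratory chain genes held many of their reads. By comparison of transcripts, 30 of the 105 genes had 51 annotated pseudogene copies that matched over at least 100 bases at 95% identity, and for 13 genes the copies took over 10% of the reads of gene and copies. A block on chromosome 1 (chr1:24612775-24616197, GRCm38) carries copies of mitochondrial genes. Gm28661 is identical to mt-Co2 over 681 bases and took 51.7% of the reads of the pair on average, from 21.6% to 74.3%. Gm28438 took 81.0% of its pair with mt-Nd3 (66.8% to 87.7%), Gm29216 26.7% with mt-Co1 (25.1% to 29.3%) and Gm28437 5.17% with mt-Co3. No source used here says how a read that matches both was placed, and levels of mt-Nd3, mt-Co2 and mt-Atp6 depend on it. Gm10925, identical to mt-Atp6 over 678 bases, stood at 3975, 24910.2, 17825, 25084 and 28128 in control females and 54679, 73679, 87011, 57937 and 60026 in knockout females. These groups did not overlap, while mt-Atp6 itself was at 248959 to 359338 and 229325 to 331921. In males Gm10925 ran from 5946 to 42961, with a median of 23255, in controls and was at 47541, 69103, 14187 and 19569 in knockouts, with overlap. The copies together made up 14.4% ± 2.50, 17.4% ± 1.90, 15.3% ± 2.07 and 16.5% ± 5.26 of the mitochondrial reads with copies, in control females, knockout females, control males and knockout males.

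Each copy was added to its gene in an alternative chosen after seeing the data. In control females 46 genes were then called higher (13.5% of all genes) and 3 lower (12.9%). In knockout females 54 were higher (12.1%) and 1 lower (10.7%). The knockout calls stayed at 2 and 1. In that fit mt-Nd3 was called higher in knockout females than in knockout males (0.59 ± 0.15, adjusted p = 0.0081), against 0.23 ± 0.28 (adjusted p = 0.60) without the copy. Among nuclear genes, Gm10175 took 89.4% of the reads shared with Atp5g2, Ndufb4c 83.5% with Ndufb4, Gm12338 73.7% with Cox7c and Gm10221 62.5% with Atp5l, all identical over the whole copy.

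For 2 nuclear genes the division of reads between gene and copy changed from library to library. Ndufs5, an accessory subunit of complex I on chromosome 4 (chr4:123712710-123718202), has the copy BC002163 on chromosome 16 (chr16:42955631-42955949), which differs by T81C and A105G, counted from 1 at the first coding base of Ndufs5. The 2 substitutions are the only differences between the aligned parts of gene and copy. The stretches around them are printed with the differing bases in capitals (coding bases 57 to 129):
Ndufs5: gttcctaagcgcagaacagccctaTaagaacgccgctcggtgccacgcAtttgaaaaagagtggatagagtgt
BC002163: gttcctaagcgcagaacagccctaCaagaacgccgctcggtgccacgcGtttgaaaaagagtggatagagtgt

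Ndufs5 was at 1044, 1511, 1422, 1709.9 and 1640.3 in control females and 638, 1344, 1383, 1569 and 1471 in knockout females. Control males 1 to 6 were at 465, 688, 542, 1242, 1245 and 1385, and knockout males at 1436, 518, 471 and 474. In knockout female 1, control males 1 to 3 and knockout males 2 to 4, Ndufs5 was at 465 to 688 and BC002163 at 723 to 869.7. In the other 13 libraries Ndufs5 was at 1044 to 1709.9 and BC002163 at 268 to 489. The copy's share thus fell into 2 ranges, 55.8% to 62.9% and 18.0% to 23.8%, with no library between. The sex differences of Ndufs5, 0.77 ± 0.32 and 0.94 ± 0.35 (adjusted p = 0.084 and 0.062), became 0.28 ± 0.12 and 0.37 ± 0.14 with the copy added (adjusted p = 0.10 and 0.061).

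Ndufa12, a complex I subunit at chr10:94198720-94221443, has the copy Gm15920 on chromosome 5 (chr5:130188395-130188796), which differs by A135G and T414C on the same counting. The stretch around the first is shown with the differing base in capitals (coding bases 111 to 159):
Ndufa12: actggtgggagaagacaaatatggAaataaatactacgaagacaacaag
Gm15920: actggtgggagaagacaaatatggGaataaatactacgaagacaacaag

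Gm15920 was at 209 in control female 1, 293 and 197 in knockout females 1 and 2 and 334 in knockout male 4, and at 851 to 1847 in the other 16 libraries. Ndufa12 ranged from 1014 to 1771 over all 20. These 4 libraries are not the set that stands out for Ndufs5, although knockout female 1 and knockout male 4 are in both.

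**Figure D5:**
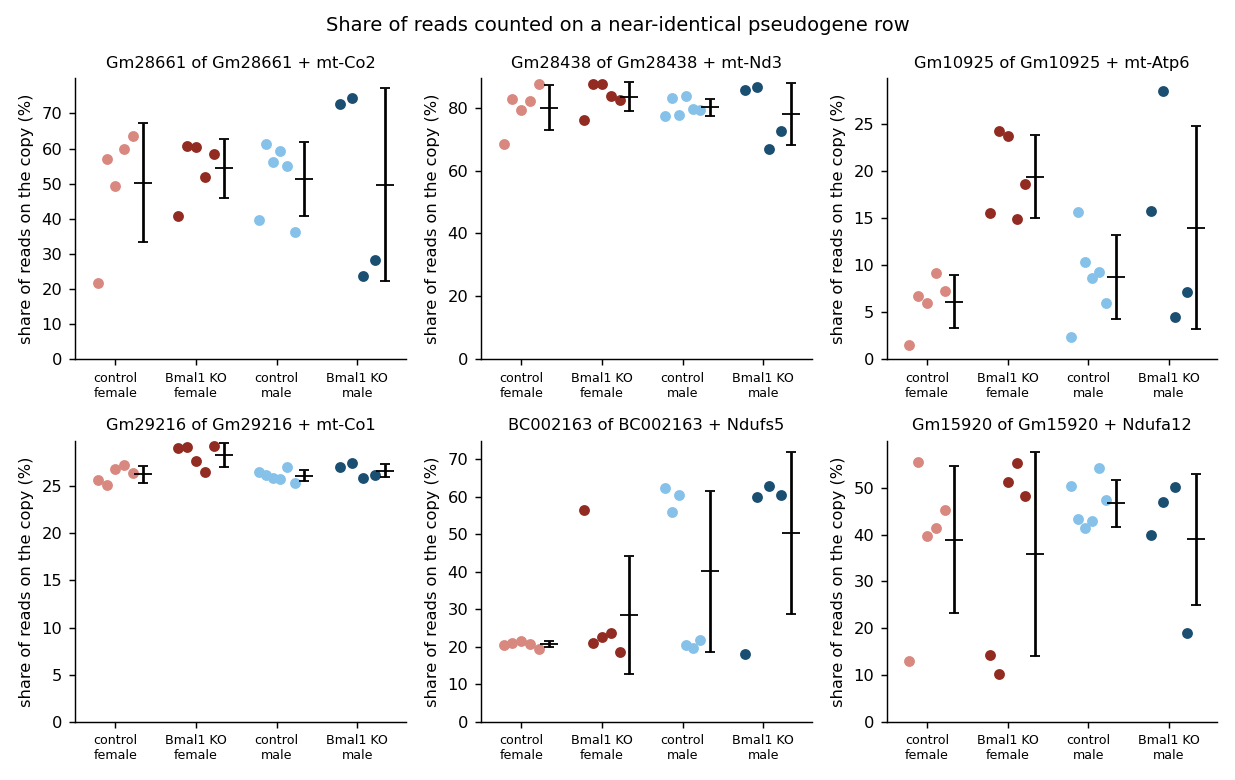
Share of reads counted on the copy, in percent of the reads of gene and copy, for 6 pairs in each library (points), with the mean and SD of each group in black. BC002163 takes 55.8% to 62.9% of its pair with Ndufs5 in 7 libraries and 18.0% to 23.8% in the other 13.

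Promoters were read from RefSeq (GRCm38.p6) as 250 bases before to 50 after the start, which were found for 73 of the 105 genes. Each motif was searched on both strands, and no letters of one overlap another in the windows printed. CGCATGCG, the centre of the NRF1 motif, was in 11 genes (15.1%, against 2.07% of all 27025 genes with such a window). The ETS motif CCGGAAG, which GABP binds, was in 17 (23.3%, against 9.93%). AGATGGCG, a part of the YY1 motif, was in 8 (11.0%, against 2.27%). The E-box CACGTG, which CLOCK and BMAL1 bind, was in 5 (6.85%, against 8.09%), and AAGGTCA, a part of the ERRalpha motif, in 8 (11.0%, against 5.38%). Among the 29 genes with a promoter that were called higher in females in both genotypes, ETS was in 8, NRF1 in 4, YY1 in 4, the E-box in 2 and ERRalpha in 3. Among the other 44 these were in 9, 7, 4, 3 and 5. The 150 bases before the start are printed for 3 genes that were higher in females in both genotypes and carry the ETS motif, with motif matches in capitals; Atp5j also holds the NRF1 and YY1 letters, and shares its start region with Gabpa on the other strand. All 3 lie on the minus strand, and CTTCCGG is the ETS motif read on the other strand.
Sdhd (chr9:50603850-50603999): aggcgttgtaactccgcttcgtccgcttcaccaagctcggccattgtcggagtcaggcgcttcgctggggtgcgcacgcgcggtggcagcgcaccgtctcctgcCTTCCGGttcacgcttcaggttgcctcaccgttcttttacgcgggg
Cox6b1 (chr7:30626115-30626264): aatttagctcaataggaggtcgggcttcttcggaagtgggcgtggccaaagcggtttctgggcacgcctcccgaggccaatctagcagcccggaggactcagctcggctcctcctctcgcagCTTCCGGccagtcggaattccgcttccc
Atp5j (chr16:84834977-84835126): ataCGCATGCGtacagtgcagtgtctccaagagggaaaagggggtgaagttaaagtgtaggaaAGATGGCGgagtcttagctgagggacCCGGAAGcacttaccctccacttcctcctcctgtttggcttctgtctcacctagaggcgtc

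A match describes the letters and is no evidence of binding, and for Ndufb6 and Ndufc2, the genes lower in knockout females, the same 150 bases held none of these motifs. In the longer window that the counts use, Ndufb6 holds the ETS motif and Ndufc2 none.

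Over the 20 libraries with group means removed, the genes whose log2 levels followed the mean of the nuclear subunits most closely were Eif3i (Pearson r = 0.962), Mrps7 (0.944), 2410015M20Rik (0.942), Naa38 (0.941) and Timm17b (0.934). For the mitochondrial genes they were mt-Te (0.944), Atp6v1e1 (0.909), Rnf181 (0.907), Txn2 (0.897) and F2r (0.895). These values describe a ranking over all genes tested, and all points share the same libraries and their depth.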

How the data were processed

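RNA from whole mouse adrenal glands was sequenced in 20 libraries. Per the labels' protocols, RNA extraction used a Direct-zol miniprep and library preparation a TrueSeq RNA kit. DESeq2, Salmon, featureCounts, MultiQC and FastQC, and the builds mm10 and GRCm38, are listed per the submitters' processing notes, without roles or versions. No source used here gives the aligner, the strand setting or the treatment of reads that match several places. The values deposited by the authors are a normalised signal per gene and library. Within each library 100% of them were whole multiples of 1 step, within a tolerance of 0.001, so whole reads could be recovered (13421985 to 26742820 per library).

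Groups came from the genotype and sex labels. The main test was limma 3.58.1 (R 4.3.3) with a trend on log2(value + 1), 1 mean per group over all 20 libraries, for 26612 genes that reached 1 in 4 or more libraries. Benjamini-Hochberg adjustment ran over all of them, for 5 contrasts. This test was planned for normalised values and was kept. The count test on recovered reads, edgeR 4.0.16, called 518 and 401 genes for the knockout in females and males, 6923 and 6099 for sex in controls and knockouts and 10 for the interaction, among 18387 tested. DESeq2 1.42.0 was run as well. The fit was tested on simulated data. Other alternatives were scaling, pseudocount, filter, age, the replicate block, the samples in the fit, and leaving out each library. Restriction to 2.4 to 3.7 months and adding near copies were chosen after seeing the data. The members and lists were chosen with earlier results of these data known.

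Genes named with values are those called in a knockout contrast, the leading calls by adjusted p or size for sex, all mitochondrial genes, catalytic subunits, tissue isoforms, the highest and lowest of each complex per kilobase, and the largest differences; 1 gene of this rule is not reported here. Other genes come from lists of fixed members. Near copies are pseudogenes of GENCODE M21 (GRCm38) that blastn 2.17.0 aligned over at least 100 bases and 80% of the copy at 95% identity. Their rows were matched by Ensembl ID. Promoters came from RefSeq (GRCm38.p6).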

Additional observations from a re-analysis of the deposited data

Results flagged for a closer look

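In groups of 4 to 6 libraries, a library was singled out where its gap to the nearest other was a large share of the group's range (Dixon's criterion). Of 242 groups checked, over the summed levels and 60 named genes, 42 met it, and chance alone does so in about 1 in 20. Most of these concern 1 library. Control male 6 (labelled 2.9 months) was the highest control male in the summed nuclear level, at 304312 against at most 260330, and in the summed mitochondrial level, at 2727510 against at most 2057643. Among nuclear genes it was highest with Atp5a1 at 22975, Atp5b at 27088, Atp5c1 at 6696, Atp5g3 at 5179, Cox6b1 at 4981, Cox6c at 4262, Cox7b at 3161, Ndufa4 at 4713, Ndufc1 at 1855, Ndufs8 at 3722, Sdha at 14473, Sdhb at 5953, Uqcrb at 4364 and Uqcrq at 3317. Among mitochondrial genes it was highest with mt-Atp6 at 358413, mt-Atp8 at 64085, mt-Co1 at 609714, mt-Co2 at 200986, mt-Co3 at 297761, mt-Cytb at 259071, mt-Nd1 at 217979, mt-Nd2 at 253816 and mt-Nd6 at 33914. In Cox7b2 it held a single read (1.10 normalised), where the other control males had none.

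Bmal1 knockout female 4 was the highest of its group in the summed nuclear level, at 326999 against at most 298249, with Atp5b at 29237, Cox5a at 2265 and Ndufs3 at 3372. Bmal1 knockout male 1 was the highest of its group in the same sum, at 280395 against at most 230784, with Atp5b at 27626, Ndufs5 at 1436, Sdhb at 5704, Sdhc at 2952 and Uqcrq at 2906, and it held a single read of Cox8c (0.797). Control female 4 was the highest of its group in Cox8b, at 559.7 against at most 233, and in Ndufa4l2, at 663 against at most 507. Lowest values that stood apart were Ndufs5 at 638 in Bmal1 knockout female 1, Ndufaf4 at 585 in Bmal1 knockout female 5, and Uqcrb in control female 1 at 3639.5. The 2 Ndufs5 values are libraries in which the division of reads with BC002163 differed from the rest of their group.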

How the results depend on the processing

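Among the 60 named genes, none with a call reversed its direction in any alternative run. For the knockout in females (2 called lower) the count was 0 with only the groups compared, without the 1.5-month control females and among libraries of 2.4 to 3.7 months, and 1 (Ndufc2) with the replicate block. For males (1 called lower) it was 2 when scaled to nuclear reads, 3 with DESeq2, and 0 with only the groups compared, with the replicate block and at 2.4 to 3.7 months. For comparison, the main test called 0.635% and 0.567% of all genes lower in females and males. For sex in controls 43 were higher and 3 lower. The number higher was 28 scaled to all reads (8.56% of all genes) and 27 scaled to nuclear reads (8.62%). It was 15 with age as covariate (7.69%), 20 without the 1.5-month controls (9.93%) and 11 at 2.4 to 3.7 months (7.45%). At those ages 1 was lower (6.28%). The nuclear-subunit median was 0.12 under scaling to nuclear reads. For sex in knockouts (52 higher, 1 lower) the number higher was 33 and 31 under the first and second scaling (7.73% and 7.83% of all genes). The medians were 0.21 and 0.20. The number lower was 5 and 6 under these scalings (15.4% and 16.2% of all genes), and 4 with edgeR and with DESeq2 (16.1% and 13.9%). It was 2 with a minimum of 10, without the 1.5-month controls and at 2.4 to 3.7 months. It was 0 with TMM, pseudocount 0.1, no filter, age or the replicate block. In the settings with 2 or 0 lower, 7.47% to 15.2% of all genes were lower.

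Leaving out 1 library at a time gave 1 to 3 lower in knockout females, 0 to 3 lower in knockout males, and 32 to 57 higher and 2 to 3 lower for sex in controls, and 36 to 60 higher and 0 to 2 lower in knockouts. The medians of nuclear and mitochondrial genes ran from -0.12 to -0.02 and -0.17 to 0.01 for the knockout in females, from -0.21 to -0.09 and -0.22 to 0.02 in males, from -0.00 to 0.13 and -0.08 to 0.14 for the interaction, from 0.22 to 0.31 and 0.01 to 0.17 for sex in controls, and from 0.29 to 0.41 and 0.04 to 0.22 in knockouts. The causes were not tested. Whether replicate numbers pair the libraries is not known. Same-numbered libraries correlated at -0.07 to 0.14, which does not exclude pairing. The knockout female most like control females 1, 2 and 4 bore the same number in each case. So did the control male most like control females 2, 4 and 5. In comparisons with knockout males the same number was never the closest. The replicate block changed the calls as given above. Over the named genes 9828 values kept their side of the threshold, 83 gained and 181 lost the call. Genes at 1 read in 1 library, such as Cox7b2 and Cox8c, cannot be compared at this depth.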
